A study of Arabidopsis thaliana with 6 samples.

Results

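The genes described here encode nuclear-made subunits of the last 3 complexes of mitochondrial respiration in Arabidopsis thaliana: complex III (cytochrome bc1, which in plants carries the mitochondrial processing peptidase), complex IV (cytochrome c oxidase) and complex V (ATP synthase). A list of 31 loci was given by locus code, 15 for complex III, 7 for complex IV and 9 for complex V. A locus was measured by a probe set assigned to it alone, and where it had several, by the one with the highest mean over the 6 arrays. This gave 18 measured genes, 11 of complex III, 5 of complex IV and 2 of complex V, out of 13355 genes with such a probe set. Another 13 loci had none in the probe table used and were left out.

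Poly-A RNA was hybridized to 6 ATH1 arrays (Affymetrix). Of these, 3 held phloem exudate, the sap that drips from cut sieve tubes when the chelator EDTA keeps them open, and 3 held phloem tissue cut out of sections with a laser (laser microdissection and pressure catapulting, LMPC phloem). All plants grew with 8 h of light per day until flowering, and the labels give no genotype, treatment or plant age. For exudate the amplification was linear (Two-Cycle cDNA synthesis kit), and for LMPC phloem it used a SMART kit with 10 cycles of PCR, so the effects of kit and sample type cannot be told apart. The labels do not say whether replicates came from separate plants or how many plants each pool held, so the p-values cover the spread between these arrays, which may be technical.

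Complex III passes electrons from ubiquinol to cytochrome c, complex IV passes them from cytochrome c to oxygen, and complex V uses the resulting proton gradient to make ATP. The complexes are assembled from a few subunits encoded by the mitochondrial genome and many encoded in the nucleus, translated in the cytosol and imported. Mature sieve elements have no nucleus but keep mitochondria, and the adjacent companion cells are rich in them. For most of the 18 genes the reference table gave the locus code without a product name, and their roles below are textbook background.

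For complex III the loci left out were the second alpha subunit of the processing peptidase (MPPalpha, AT3G16480), AT5G13430, AT5G13440 and AT5G05370. For complex IV they were COX6B (AT1G22450) and AT4G28060. For complex V they were the loci AT5G08670, AT5G08680 and AT5G08690, which encode the catalytic beta subunit and lie next to each other, ATP3 (AT2G33040), ATP5 (AT5G13450), ATPQ (AT3G52300) and MGP1 (AT2G21870). Of these, 5 loci shared a probe set with another gene, and no value was taken from it. Complex V was therefore represented by its delta and epsilon subunits alone.

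The 6 arrays were not on a common scale. Their mean signals, with 2% of the probe sets trimmed at each end, lay between 17.8 and 28.0 in exudate and between 22.7 and 28.6 in LMPC phloem. Exudate array 3 was the brightest exudate array, and 16 of the 18 genes had their highest exudate signal on it. The signal varied more between exudate arrays than between LMPC arrays, with a median coefficient of variation over the genes of 52.0% in exudate and 29.5% in LMPC phloem. Each difference is that of log2(signal + 16), exudate minus LMPC phloem, tested with limma over 15320 probe sets, and a gene was called at an adjusted p under 0.05. In such bulk samples, fewer cells of a type and less RNA per cell cannot be told apart.

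Of the 18 genes, 2 were higher in exudate (8.51% of all tested probe sets were called in that direction), 7 were lower (16.6% of all) and 9 were not called (25.2% of all probe sets were called in either direction). All 18 passed the filter on dim probe sets. The same 9 called genes were those whose signals did not overlap between the groups, 2 with exudate above (12.1% of all tested probe sets) and 7 with exudate below (27.8% of all, and 39.9% in either direction). The median difference of the 18 genes was -0.88, against -0.27 for all tested probe sets. The offset of 16 shrinks the differences of dim probe sets more than those of bright ones. On all arrays 14 of the 18 genes lay above the 75th percentile, while the median signal of an array was between 8.8 and 15.8. The part of brightness in the gap between these 2 medians was not tested. Calls in both directions occurred in complex III, with 2 higher and 4 lower of 11. Complex IV had 0 higher and 2 lower of 5, and complex V 0 higher and 1 lower of 2. At an unadjusted p under 0.05, limma had 12 of the 18 genes in either direction, and 5729 of all 15320 probe sets. The count of lower genes was 3 without exudate array 1 and 3 without exudate array 2, where 1521 and 1879 of all 15320 probe sets were lower. The count of higher genes was 1 without exudate array 1 or 3 or any single LMPC array, where 907 to 1064 of all were higher.

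**Figure D1:**
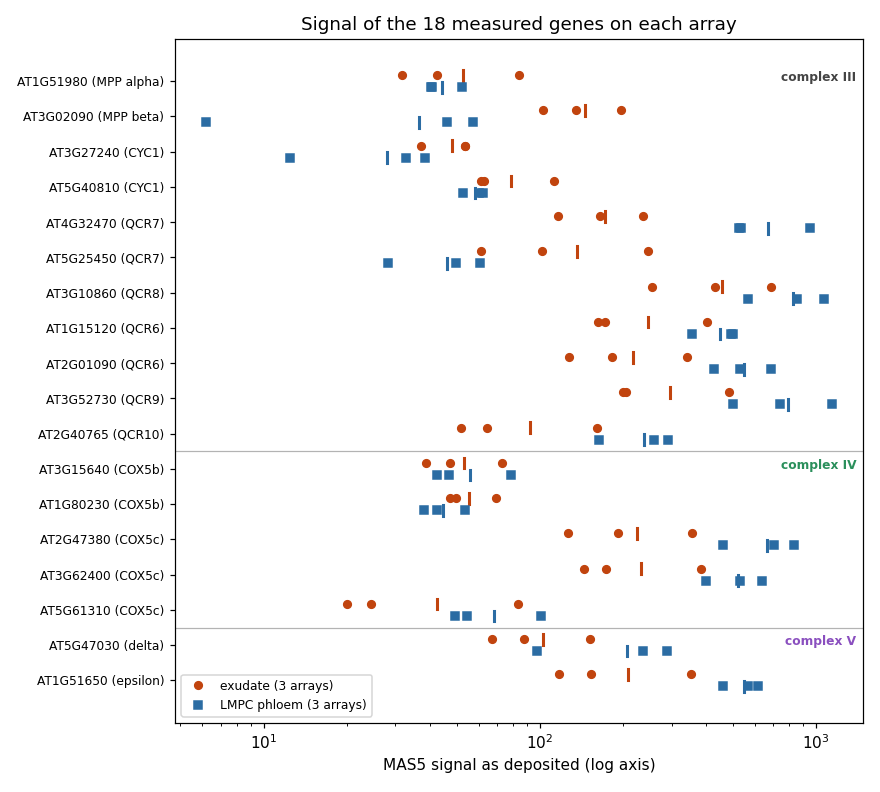
MAS5 signal (log axis) of the 18 measured genes on the 3 exudate arrays (circles) and the 3 LMPC phloem arrays (squares), with the mean of each group as a vertical bar. In complex III, MPPBETA (AT3G02090) and AT5G25450 have all exudate points above all LMPC points, and in the 3 complexes together 7 genes have all exudate points below.

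The processing peptidase cuts the targeting peptide from proteins as they enter the mitochondrion, and in plants it forms the matrix-facing core of complex III. MPPBETA (AT3G02090), its catalytic beta subunit, had signals of 197, 102.9 and 135.6 on exudate arrays 1, 2 and 3, against 6.21, 46.1 and 57.5 on LMPC arrays 1, 2 and 3. The groups did not overlap, and the spread in LMPC phloem came mostly from array 1. The gene rose by +1.75 (SE 0.40, adjusted p = 0.00362). It remained called without each array in turn and under all 4 other scalings, but not with a pseudocount of 1 (+2.38, adjusted p = 0.0578).

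The alpha subunit gene AT1G51980 had signals of 42.3, 31.6 and 84.4 in exudate, against 40.2, 52.2 and 40.8 in LMPC phloem. Its groups overlapped, with the highest and the lowest of the 6 values both in exudate. The difference was +0.12 (SE 0.33, adjusted p = 0.824) and turned to -0.19 without exudate array 3. Whether the alpha and beta subunit genes differed from each other in this respect was not tested.

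Cytochrome c1 is the haem subunit that hands electrons to soluble cytochrome c, and both of its loci were measured. AT3G27240 had signals of 37.1, 53.6 and 53.7 in exudate, against 38.4, 12.4 and 32.8 in LMPC phloem. AT5G40810 had 62.8, 61.2 and 112.5 in exudate, against 52.9, 62.5 and 60.0 in LMPC phloem. Neither was called, with differences of +0.59 (SE 0.33, adjusted p = 0.199) and +0.31 (SE 0.32, adjusted p = 0.502), and the groups of each overlapped. Together the 4 genes of the peptidase and cytochrome c1, a grouping not planned beforehand, had 1 higher and 0 lower calls and a median difference of +0.45. Of all tested probe sets, 8.51% were called higher and 16.6% lower.

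QCR7 is a small subunit that binds the matrix side of complex III, and its 2 measured loci had opposite calls. AT4G32470 had signals of 116.6, 165.3 and 236 in exudate, against 954, 533 and 525 in LMPC phloem. All exudate values lay below all LMPC values, and the gene fell by 1.86 on the log2 scale (a difference of -1.86, SE 0.34, adjusted p = 0.000604), the smallest adjusted p of the 18 genes. AT5G25450 had 101.6, 61.1 and 247 in exudate, against 28.1, 60.9 and 49.6 in LMPC phloem. Exudate array 2 was nearly level with LMPC array 2, and the gene rose by +1.14 (SE 0.39, adjusted p = 0.0404). The call of AT4G32470 held without each array in turn. That of AT5G25450 was lost without exudate array 1 (+1.23, adjusted p = 0.0846) or 3 (+0.65, 0.202) and without LMPC array 1 (+0.91, 0.162), 2 (+1.31, 0.0508) or 3 (+1.20, 0.0816).

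The contrast between the QCR7 loci was also read within arrays, as the ratio of their signals. Multiplying all signals of an array by the same factor leaves this ratio unchanged, while quantile normalization can change it. Since probe sets differ in brightness, the ratio has no meaning of its own and only its change between groups does. The signal of AT4G32470 over that of AT5G25450 was 1.15, 2.71 and 0.955 on exudate arrays 1, 2 and 3, against 33.9, 8.76 and 10.6 on LMPC arrays 1, 2 and 3. The ratio was thus lower on every exudate array than on any LMPC array, by 10.2-fold in the geometric mean (log2 change -3.35, exact permutation test, two-sided p = 0.1, adjusted p = 0.175 over 7 pairs). With 3 against 3 arrays, 0.1 is the smallest p this test can give. The pair was singled out after its values were seen.

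**Figure D2:**
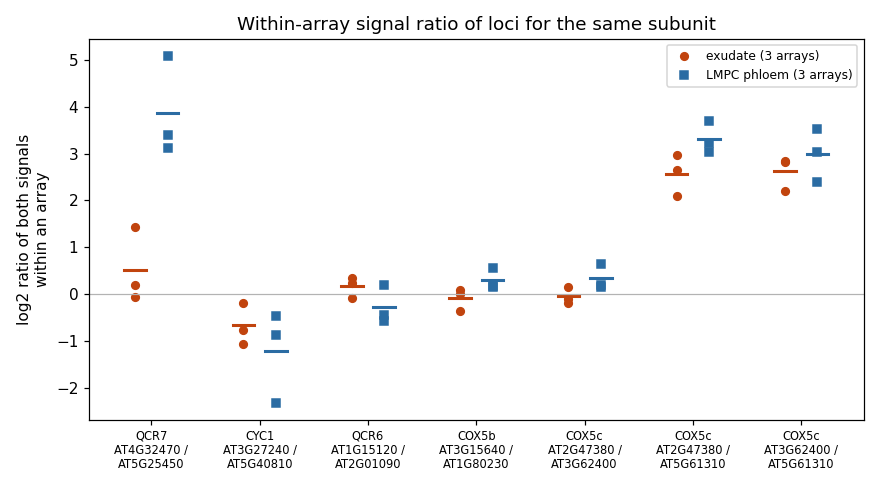
Log2 ratio of the signals of 2 loci for the same subunit within an array, for 7 pairs, on 3 exudate arrays (circles) and 3 LMPC phloem arrays (squares), with the mean as a horizontal bar. For QCR7 (AT4G32470 over AT5G25450) the exudate ratios lie far below the LMPC ratios, and for the other pairs the groups are close or overlap.

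The remaining small subunits of complex III were measured through 5 loci. QCR6, the acidic hinge protein beside cytochrome c1, has 2 loci. AT2G01090 had signals of 182, 127 and 341.9 in exudate, against 429, 685 and 530 in LMPC phloem. The groups did not overlap and the gene was lower (-1.36, SE 0.36, adjusted p = 0.00891), a call lost without exudate array 2 (-1.06, adjusted p = 0.0577). AT1G15120 had 172.3, 161.8 and 404 in exudate, against 493, 502 and 355 in LMPC phloem. Exudate array 3 lay above LMPC array 3, and the difference of -0.93 (SE 0.35, adjusted p = 0.0607) was not called. Without exudate array 3 it was called (-1.33, adjusted p = 0.0079), as it was after quantile normalization (-0.79, 0.0475). Within arrays the ratio of AT1G15120 over AT2G01090 overlapped between the groups (log2 change +0.45, exact permutation test, two-sided p = 0.2, adjusted p = 0.28).

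QCR8 binds beside cytochrome b, and its measured locus was AT3G10860. It had signals of 429.8, 254.5 and 686.2 in exudate, against 566, 1069 and 850 in LMPC phloem, with overlap between the groups. The difference of -0.90 (SE 0.37, adjusted p = 0.0807) was not called, and without exudate array 3 it was (-1.24, adjusted p = 0.0218).

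QCR9 (AT3G52730), a small subunit close to the Rieske protein in yeast, had signals of 199.6, 205.5 and 484.2 in exudate, against 1144, 738 and 500.5 in LMPC phloem. The groups were separated by a narrow gap between exudate array 3 and LMPC array 3. It was lower by -1.41 (SE 0.38, adjusted p = 0.0105), and leaving out exudate array 1 (-1.20, adjusted p = 0.0713), exudate array 2 (-1.22, 0.0544) or LMPC array 1 (-1.12, 0.0677) ended the call. QCR10 (AT2G40765), another small subunit, had 64.3, 51.7 and 160.5 in exudate, against 259, 164 and 291 in LMPC phloem. Here too exudate array 3 came close to the lowest LMPC array. The difference was -1.33 (SE 0.37, adjusted p = 0.0131), and leaving out exudate array 1 (-1.18, adjusted p = 0.0731), exudate array 2 (-1.06, 0.0738) or LMPC array 3 (-1.17, 0.0634) ended the call. The 7 QCR genes, likewise not a planned group, together had 1 higher and 4 lower calls and a median difference of -1.33 (8.51% and 16.6% of all tested probe sets were called). Whether they differed from the peptidase and cytochrome c1 genes was not tested.

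**Figure D3:**
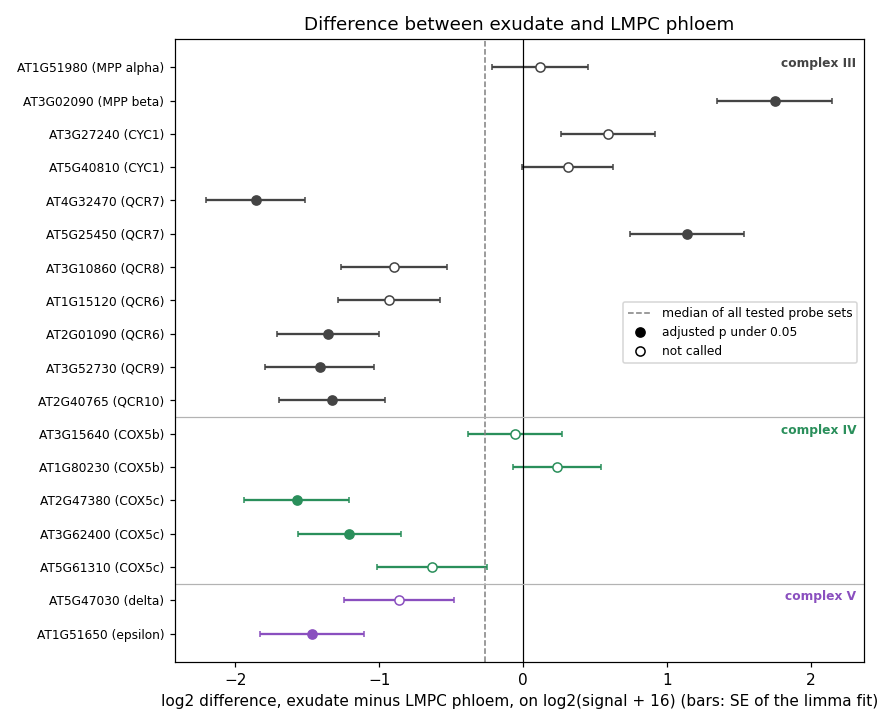
Log2 difference, exudate minus LMPC phloem, of the 18 genes with the SE of the limma fit, filled where called at an adjusted p under 0.05, with a dashed line at the median of all tested probe sets (-0.27). The 4 genes of the peptidase and cytochrome c1 lie right of 0, and all QCR genes but AT5G25450 lie left of it.

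In complex IV, 2 families of subunits were measured, with 0 calls of 2 genes for COX5b and 2 lower calls of 3 for COX5c. Of all tested probe sets, 16.6% were called lower and 25.2% in either direction. Whether the families differed was not tested. COX5b is a zinc-binding subunit on the matrix side of the enzyme. Its locus AT3G15640 had signals of 47.4, 38.8 and 73.1 in exudate, against 78.7, 42.6 and 46.9 in LMPC phloem. Its other locus, AT1G80230, had 47.4, 49.7 and 69.3 in exudate, against 53.7, 38.0 and 42.3 in LMPC phloem. Both overlapped between the groups, and neither was called, with differences of -0.06 (SE 0.33, adjusted p = 0.918) and +0.23 (SE 0.31, adjusted p = 0.61). The sign of AT3G15640 turned under quantile normalization (0.08), median centring (0.21), trimmed mean scaling (0.16) and spike-in scaling (0.99), and without exudate array 2 (0.09) or LMPC array 1 (0.16).

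COX5c is a very small membrane subunit of plant cytochrome c oxidase with 3 listed loci, all measured. AT2G47380 had signals of 192.1, 126.7 and 355.8 in exudate, against 833, 706 and 460 in LMPC phloem. The groups did not overlap, and the gene was lower (-1.57, SE 0.37, adjusted p = 0.00399), without each array in turn as well. AT3G62400 had 173.1, 144.1 and 381.8 in exudate, against 530, 635 and 401 in LMPC phloem. It too was lower without overlap (-1.21, SE 0.36, adjusted p = 0.0189), but median centring ended the call (-0.94, adjusted p = 0.0565). Its adjusted p was 0.0913 without exudate array 1 (-1.07) and 0.0968 without exudate array 2 (-0.95). Dropping LMPC array 1 gave -1.18 (adjusted p = 0.0557), and dropping LMPC array 2 gave -1.06 (0.0794).

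The remaining listed COX5c locus, AT5G61310, had signals of 24.5, 20.1 and 83.2 in exudate, against 101, 54.7 and 49.3 in LMPC phloem. Exudate array 3 was far from the other exudate arrays and inside the LMPC range. The difference was -0.63 (SE 0.38, adjusted p = 0.238), and without exudate array 3 it was -1.09 and called (adjusted p = 0.0333). Within arrays, the ratio of AT2G47380 over AT5G61310 was 7.84, 6.30 and 4.28 in exudate, against 8.25, 12.9 and 9.34 in LMPC phloem. The groups of this ratio did not overlap (log2 change -0.74, exact permutation test, two-sided p = 0.1, adjusted p = 0.175), but exudate array 1 and LMPC array 1 were close. The ratio of AT2G47380 over AT3G62400 (log2 change -0.38, exact permutation test, p = 0.1, adjusted p = 0.175) and that of the COX5b loci (-0.38, exact permutation test, p = 0.1, adjusted p = 0.175) did not overlap either, and the ratios of the cytochrome c1 loci and of AT3G62400 over AT5G61310 did.

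Complex V was seen through 2 subunits of the central stalk of the catalytic head, which turns as protons pass. AT1G51650, the epsilon subunit, had signals of 117.7, 153.7 and 352.5 in exudate, against 616, 567 and 461 in LMPC phloem. The groups did not overlap, and the gene was lower (-1.46, SE 0.36, adjusted p = 0.00609), a call lost without exudate array 1 (-1.16, adjusted p = 0.0545). AT5G47030, the delta subunit, had 87.8, 152.2 and 67 in exudate, against 289, 97.8 and 235 in LMPC phloem. Exudate array 2 lay above LMPC array 2, and the difference of -0.86 (SE 0.38, adjusted p = 0.105) was not called. Without LMPC array 2 it was called (-1.29, adjusted p = 0.0248).

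The 3 complexes were set side by side by the median of their members, with no test of a list. The median difference was -0.90 in complex III (n = 11), -0.63 in complex IV (n = 5) and -1.16 in complex V (n = 2). Complex III ranged from -1.86 to +1.75, complex IV from -1.57 to +0.23 and complex V from -1.46 to -0.86. The range within complexes III and IV thus exceeded the distance between any 2 of the medians. Single arrays moved these medians. Without exudate array 2 the median was -0.55 in complex III and -0.36 in complex IV, and without exudate array 3 it was -1.24 in complex III and -1.09 in complex IV. Without LMPC array 1 that of complex IV was -0.37.

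Compared within arrays, the median log2(signal + 16) of complex IV minus that of complex V was -0.89, -1.36 and -0.82 on exudate arrays 1, 2 and 3, against -1.91, -1.87 and -2.41 on LMPC arrays 1, 2 and 3. As with the ratios, at most a change between groups can be read from such values, and here not cleanly. The median gene of complex IV was a COX5b locus on exudate arrays 1 and 2 and AT5G61310 on all other arrays. That of complex III changed between arrays too, so the values mix the change of a gene with probe brightness. The groups did not overlap, and the change was +1.04, resting on 5 and 2 genes. Complex III minus complex IV was 1.09 ± 0.25 in exudate and 1.61 ± 0.55 in LMPC phloem, and complex III minus complex V was 0.06 ± 0.53 in exudate and -0.45 ± 0.26 in LMPC phloem (SD, n = 3 in each group). Both of these overlapped between the groups.

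Ranks within an array were also compared. A rank depends on the probes as well as on the transcript, so only its change between groups can be read. The 7 probe sets called lower stayed between the 91.1st and the 99.5th percentile on all 6 arrays. AT4G32470 reached the 97.8th percentile in exudate and the 99.4th in LMPC phloem, without overlap. MPPBETA was between the 94.1st and 97.8th percentile in exudate and between the 29.6th and 90.3rd in LMPC phloem. The ranks of 5 genes in exudate lay above all LMPC ranks (18.5% of all tested probe sets) and those of 8 genes below (19.9% of all). Those above were MPPBETA, both cytochrome c1 loci, AT5G25450 and AT1G80230.

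The 7 lower calls depended on how the arrays were put on a common scale. Quantile normalization gave 2 higher and 8 lower genes (13.0% and 12.4% of all tested probe sets, 25.4% in either direction), median centring, which took the overall median of -0.27 out and left the 18 genes at a median of -0.61, 2 and 6 (12.8% and 9.56%, together 22.4%), and scaling to a common trimmed mean 2 and 7 (12.5% and 13.8%, together 26.3%). Scaling to the hybridization spike-ins, control transcripts added before hybridization, gave 7 higher and 0 lower genes, with 29.8% of all probe sets called higher and 3.84% lower (33.7% in either direction). The 7 were MPPBETA, AT1G51980, both cytochrome c1 loci, AT5G25450 and both COX5b loci. The spike-in signal was 435 to 806 in exudate and 1237 to 1857 in LMPC phloem (geometric mean of 9 probe sets). Under this scaling AT4G32470 stood at -0.54 (adjusted p = 0.222), AT2G47380 at -0.26 (0.578) and AT1G51650 at -0.16 (0.765). The median of the 18 genes was then +0.38, close to the +0.42 of all tested probe sets.

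**Figure D4:**
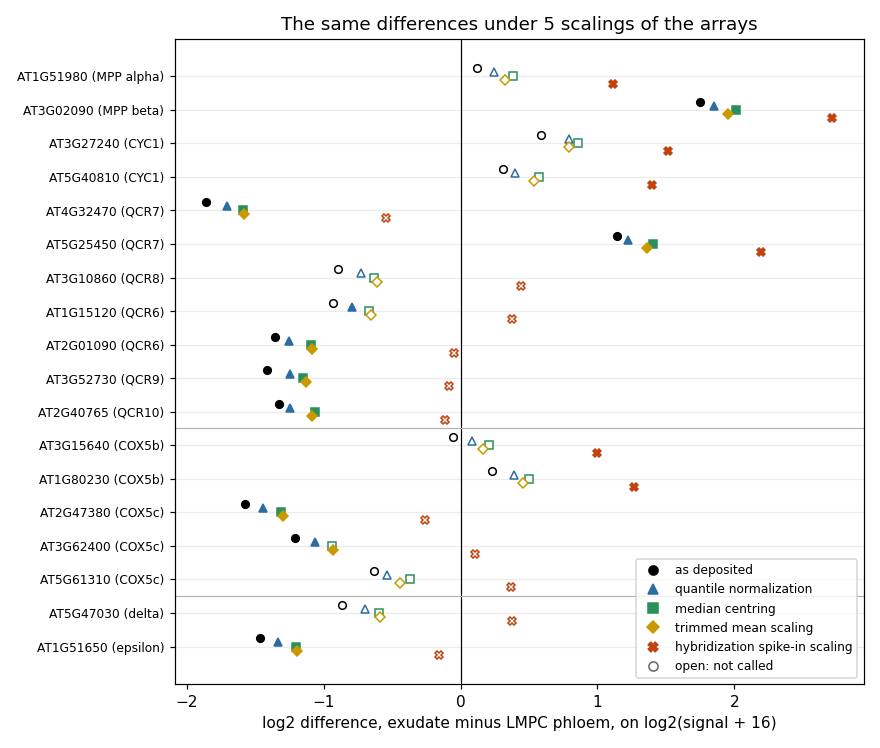
Log2 difference, exudate minus LMPC phloem, of the 18 genes with the values as deposited and under 4 other scalings of the arrays, filled where called at an adjusted p under 0.05. The crosses of the spike-in scaling lie right of the other symbols for every gene. AT4G32470 lies left of 0 and AT5G25450 (both QCR7) right of it under all 5, with AT4G32470 not called under the spike-in scaling. A common factor per array leaves the gap between these 2 loci nearly unchanged, so such scalings do not test it.

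The genes also differed in length, in a way that ran with the differences. Gene spans in the RefSeq table of TAIR10.1, introns included, were between 1131 and 3864 bp. The 5 longest genes (2755 to 3864 bp), the 4 of the peptidase and cytochrome c1 and AT3G15640, had a median difference of +0.31, against -0.27 for the 2851 tested nuclear genes in the same bin of span. The 3 shortest genes (1131 to 1226 bp), QCR10 (AT2G40765), AT2G47380 and AT3G62400, had a median of -1.33, against -0.50 for the 1383 genes in their bin. Spearman's rho between span and difference was 0.585 over the 18 genes, which share their arrays, and 0.121 over 8548 tested nuclear genes. AT5G25450 (1560 bp, +1.14) and AT1G80230 (1879 bp, +0.232) departed from this order, with upper quartiles of 0.07 and 0.226 in their bins. The ratio of the 3' to the 5' probe set of control transcripts, a measure of RNA or cDNA integrity, was 5.99 to 34.7 in exudate and 36.8 to 48.6 in LMPC phloem for GAPDH. For actin it was 12.5 to 73.4 in exudate and 4.87 to 6.63 in LMPC phloem, and for ubiquitin 6.24 to 8.94 in exudate and 8.62 to 10.5 in LMPC phloem. The 5' signals of GAPDH were 9.6 to 32.5 in exudate and 17.1 to 21.5 in LMPC phloem. Those of actin were 9.3 to 30.4 in exudate. The median signal of an array was 8.8 to 10.3 in exudate and 13.4 to 15.8 in LMPC phloem, so ratios over such low signals were imprecise. The part of length and of integrity in the result was not tested.

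**Figure D5:**
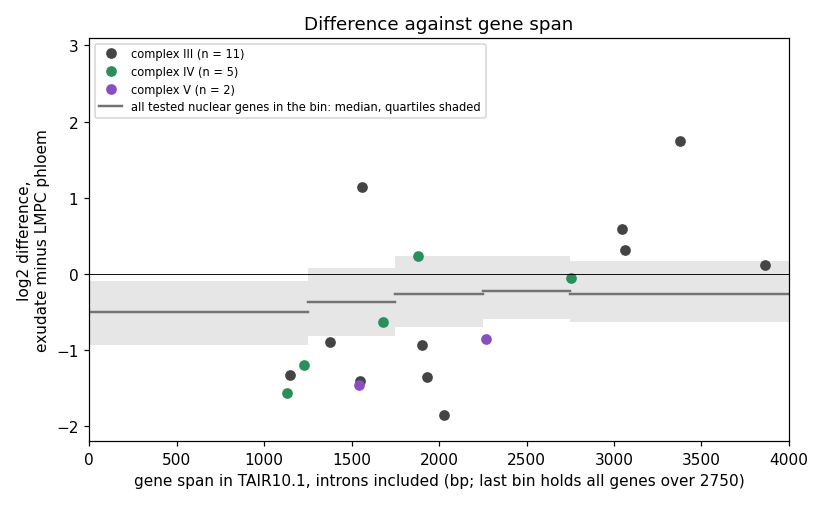
Log2 difference, exudate minus LMPC phloem, against gene span (bp) for the 18 genes, coloured by complex, with grey lines and bands for the median and the quartiles of all tested nuclear genes in 5 bins of span. Most members in the lowest 3 bins lie below the band, while AT5G25450 lies well above it and AT1G80230 at its upper edge.

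Partner genes of the same pathway were read from 8 lists by function, and most of the listed loci had no probe set of their own. Other nuclear subunits of the 3 complexes had 0 higher and 3 lower of 7 tested, with a median difference of -0.71. Among all tested probe sets 8.51% were called higher and 16.6% lower, with a median of -0.27. AT5G04750, a locus for the inhibitor protein IF1 that blocks ATP hydrolysis by complex V, had signals of 212.9, 132.3 and 351.9 in exudate, against 1097, 1423 and 689 in LMPC phloem (-2.17, adjusted p = 0.000268). Another IF1 locus, AT2G27730, was not called (-0.39, adjusted p = 0.454), and its groups overlapped. AT5G57815, a COX6b subunit gene, was lower by -1.58 (adjusted p = 0.00242). Under the spike-in scaling AT5G04750 alone of the 3 was still called lower (-0.84, adjusted p = 0.0477).

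The complexes also hold subunits made inside the mitochondrion, of which 2 were tested. The catalytic subunit gene cox1 of complex IV had signals of 141.1, 122.8 and 204.2 in exudate, against 119, 74.6 and 67.4 in LMPC phloem. All exudate values lay above the LMPC values, as for 12.1% of all tested probe sets, but exudate array 2 and LMPC array 1 were close. The difference was not called as deposited (+0.74, adjusted p = 0.0996). It was called higher under quantile normalization (+0.85, 0.0356), median centring (+1.01, 0.0242), trimmed mean scaling (+1.01, 0.0139) and spike-in scaling (+1.94, 3.15e-05). The gene cox2 was not called as deposited (+0.45, adjusted p = 0.355), but was under the spike-in scaling (+1.05, 0.0143). Whether cox1 differed from the nuclear complex IV genes was not tested.

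Of the electron carriers feeding complexes III and IV, 3 tested genes of complex II (succinate dehydrogenase) had no call as deposited (median +0.13). Under the spike-in scaling 2 of them were called higher, as were 29.8% of all tested probe sets. Both cytochrome c genes were not called as deposited, CYTC-1 (AT1G22840) at -0.65 (adjusted p = 0.193) and CYTC-2 (AT4G10040) at -0.66 (0.177). TOM7-1 (AT5G41685), a small subunit of the protein import channel of the outer membrane, was lower, with 39.2, 21.6 and 59.9 in exudate, against 251, 282 and 355 in LMPC phloem (-2.52, adjusted p = 1.74e-05), under all 5 scalings. COX17-2 (AT1G53030), a copper carrier for the assembly of complex IV, was lower by -1.84 (adjusted p = 0.00211), though not under the spike-in scaling (-0.78, 0.0862), and COX11 (AT1G02410) was called, as higher, only there of the 5 scalings (+0.95, 0.0344). Among 6 tested genes of the tricarboxylic acid cycle, AT2G20420 of succinyl-CoA ligase was higher (+1.49, adjusted p = 0.00356) and AT3G55410 of 2-oxoglutarate dehydrogenase lower (-1.23, 0.00919). Other loci of the same enzymes were not called as deposited. These were AT5G08300 (+0.30, adjusted p = 0.529) and AT5G23250 (+0.84, 0.0825) of the ligase, and AT5G65750 (+0.007, 0.992) of the dehydrogenase. That list had 3 higher and 1 lower calls with trimmed mean scaling (12.5% and 13.8% of all tested probe sets). It had 4 and 0 with spike-in scaling (29.8% and 3.84% of all), where AT3G55410 stood at -0.25 (adjusted p = 0.639). The inner membrane carrier DTC (AT5G19760) was not called as deposited (+0.42, adjusted p = 0.357), but was higher under the spike-in scaling (+1.69, 0.000199).

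Markers of cell types, those of the phloem included, were few in the probe table. As deposited, 8.51% of all tested probe sets were called higher and 16.6% lower. For mesophyll photosynthesis 3 of 12 had a probe set, and their summed signal was between 924 and 1805 in exudate and between 183 and 745 in LMPC phloem, with 3 higher calls. For companion cell and sieve element it was 3 of 11, with a summed signal of 112 to 179 in exudate and 210 to 444 in LMPC phloem. There were 1 higher and 2 lower calls, so the sum does not stand for each gene. CLE41 (mean 39.7 in exudate and 209 in LMPC phloem) and SWEET11 (16.7 and 57.8) were lower, and CLE44 (79.2 and 31.3) was higher. SUC2 and APL were among those without a probe set of their own. For xylem it was 1 of 9 (16.0 to 33.5 in exudate and 64.9 to 80.6 in LMPC phloem, called lower), and for epidermis and guard cell 1 of 4 (0.9 to 11.6 in exudate and 10.8 to 28.9 in LMPC phloem, not called). The xylem call was lost under median centring (adjusted p = 0.0607) and spike-in scaling (0.847). Under spike-in scaling 0 companion cell and sieve element markers were lower (3.84% of all tested probe sets) and 1 was higher (29.8% of all). No measured marker was at 0 on any array. The part of these cell types in the differences of the respiratory genes was not tested.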

How the data were processed

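The authors deposited linear intensity values from MAS5, a tool named without a version in the submitters' processing notes. Their scaling target and genome build were not given in the sources used here. Probe sets were named through the platform's annotation table and RefSeq genes of TAIR10.1. From 22810 probe sets, 64 controls were left out. Probe sets that exceeded the 40th percentile of an array on 3 or more of the 6 entered the test with limma 3.58.1 (R 4.3.3; lmFit, eBayes) on log2(signal + 16), without covariates or further scaling, and Benjamini-Hochberg adjustment over all 15320. The groups came from the sample titles (n = 3 each), although the extraction text of LMPC samples also speaks of exudate, and 3 arrays per group limit the precision. Within-array ratios, compared with exact permutation tests (scipy 1.17.1), and percentile ranks were chosen after seeing the data. The split of complexes III and IV into groups of subunits was not planned beforehand. Every measured member was named, and from each pathway list at most 2 called genes per direction, the uncalled ones named in addition being chosen after their values were seen. The members and lists were chosen with earlier results of these data known. The fit was tested on simulated data. Alternatives were 4 scalings, 2 pseudocounts, 2 filters, a replicate block and each array left out.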

Additional observations from a re-analysis of the deposited data

How the results depend on the processing

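Over all tested probe sets, the 1303 higher and 2550 lower calls became 1989 higher after quantile normalization, 1961 and 1465 with median centring, and 4570 and 588 with spike-in scaling. Leaving out each array gave 907 to 1216 higher and 1521 to 2469 lower calls. A pseudocount of 1 gave 951 higher and 1979 lower, and a pseudocount of 64 gave 949 and 1928, each of 15320. With no filter there were 971 and 2251 of 22746. Of the 18 genes, the 2 higher and 7 lower calls became 7 and 0 after spike-in scaling, 0 and 1 with a pseudocount of 1, and 1 and 4 with no filter, and 1 was higher with a pseudocount of 64. Leaving out each array gave 1 to 2 higher and 3 to 10 lower. After spike-in scaling the medians of complexes III, IV and V turned to 0.44, 0.37 and 0.11, and without single arrays that of complex IV lay between -1.09 and -0.36. Spike-in scaling reversed AT3G10860 (0.44), AT1G15120 (0.38), AT3G15640 (0.99), AT3G62400 (0.10), AT5G61310 (0.37) and AT5G47030 (0.38). AT3G15640 also turned after quantile normalization (0.081), median centring (0.21), trimmed mean scaling (0.16), and without single arrays it lay between -0.26 and 0.16, while AT1G51980 lay between -0.19 and 0.35. The cause was not tested. Same-numbered arrays did not deviate together (r between -0.07 and -0.004), and r lay between -0.04 and 0.06 for differently numbered ones. The labels do not give the origin of the replicates, and whether same-numbered arrays shared plants or a harvest was not tested. With the replicate block 1220 probe sets were higher and 2207 lower, with 2 and 7 of the 18 genes. No gene had a second probe set of its own or one of the _s_at or _x_at type, so these alternatives were not run.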
